A study of Arabidopsis thaliana with 4 samples.

Results

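The 10 genes described here encode the HSP70 chaperones of the cytosol, the plastid and the mitochondrion of Arabidopsis thaliana. They were taken by locus name from the probes of the array, which gave 11 probes for 10 loci among 25665 loci in all. The rule used no measured value, but the genes were chosen with earlier results of these data known. The 6 cytosolic genes were split into 3 known to be induced by heat (Hsp70b, HSP70 and ERD2) and 3 expressed in unstressed plants (HSC70-1, Hsp70-2 and AT3G09440). The plastid genes were cpHsc70-1 and cpHsc70-2, and the mitochondrial genes were mtHsc70-1 and MTHSC70-2. Gene symbols follow the RefSeq table of the TAIR10.1 assembly, in which AT3G09440 has none.

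HSP70 proteins bind exposed hydrophobic stretches of unfolded or newly made proteins and release them in a cycle driven by ATP. J-domain proteins deliver the substrate and stimulate ATP hydrolysis, and nucleotide exchange factors reset the cycle. In plants the constitutive cytosolic HSP70s serve everyday folding, the heat-induced ones are added under heat, and the organelle forms pull precursor proteins across envelope membranes and fold them inside.

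The study compared hsfb1 hsfb2b double mutant seedlings with wild-type seedlings, both in the Columbia-0 background and both heated. The mutated genes belong to class B of the heat shock factor family, whose proteins carry no activation domain, and both are known as repressors of genes induced by heat. At an age of 5 d, after growth on sugar-containing agar at 23 °C with 16 h of light and 8 h of darkness, the seedlings received 32 °C for 30 min with the plates under water. Each of 4 biological replicates was 1 two-colour array holding mutant and wild-type total RNA from many plants of the same plate. Mutant RNA carried Cy3 on replicates 1 and 3, whereas on replicates 2 and 4 it carried Cy5. The sources used here give neither the alleles nor the number of plants per sample. Unheated samples were not analysed here, so no value below measures heat induction itself.

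In the mutant the gene named HSF4 in the table (HSFB1, AT4G36990) was 55.4-fold lower (log2 ratio -5.79 ± 0.03, SE) and AT-HSFB2B (HSFB2B, AT4G11660) was 25.6-fold lower (-4.68 ± 0.07). The sources used here do not say where these probes lie relative to the mutations. In each channel 58.7% to 60.9% of the spots were well above background, and 0 spots were saturated. Of the root markers, 5 of 5 passed as higher in the mutant, with a median log2 ratio of 0.48 and a summed signal of 12521 to 19845 in mutant channels and 12600 to 15616 in wild-type channels, though 0 of 5 passed in a limma fit of separate channels (4 at an unadjusted p under 0.05). Of 3 shoot markers 1 passed as higher (CAB1) and 1 as lower (LHCA3), with summed signals of 313210 to 391230 in mutant channels and 328350 to 459000 in wild-type channels. CAB1 averaged 0.88 with the mutant in Cy3 and -0.06 with it in Cy5, LHCA3 -0.83 and 0.36, and the root marker PHT1;1 0.53 and -0.18. In limma 0 of 3 shoot markers passed with the scanner software's processed signals, without a dye term or with separate channels. At an unadjusted p under 0.05 these numbered 2, 0 and 1. Of 3 seed storage markers CRA1 (0.14 ± 0.05, adjusted p = 0.086 in limma) and OLEO1 (0.08 ± 0.04, adjusted p = 0.17) did not pass, SESA3 was not well above background in any channel, and the summed signal was 534 to 600 in mutant and 510 to 579 in wild-type channels. The part that tissue proportions play in the HSP70 values was not tested.

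Of the 10 HSP70 genes, 8 could be tested. At a Benjamini-Hochberg adjusted p of 0.05 in limma, 4 were lower in the mutant (Hsp70b, HSP70, MTHSC70-2 and Hsp70-2), 1 was higher (mtHsc70-1) and 3 did not pass (AT3G09440, cpHsc70-1 and cpHsc70-2). Among all 19314 genes tested, 29.8% passed in either direction, 13.1% as lower and 16.6% as higher. The median log2 ratio of the 8 genes was -0.21, against 0.00065 for all genes. Hsp70b fell most, and the 2 tested constitutive cytosolic genes had log2 ratios of -0.23 and -0.19. The plastid genes had ratios near 0, and the mitochondrial genes passed in opposite directions. In RNA of whole seedlings, fewer cells of a type and less RNA per cell cannot be told apart.

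**Figure D1:**
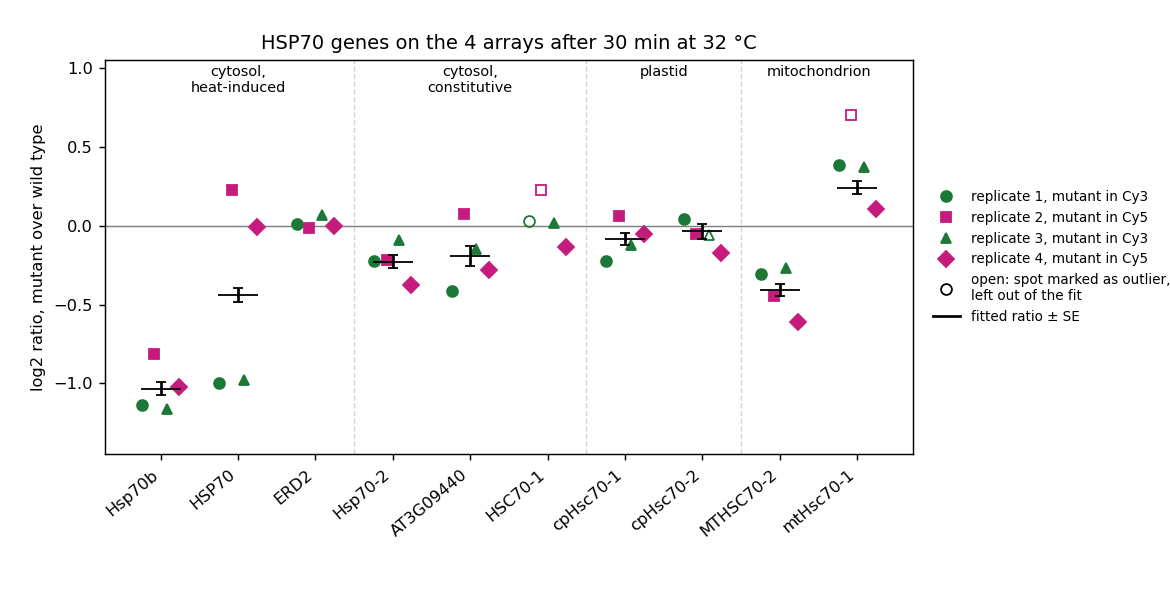
Log2 ratio of mutant over wild type (y axis) of the 10 HSP70 genes (x axis, by compartment) on each of the 4 arrays, with the fitted ratio and its standard error as black bars for the 8 tested genes. Hsp70b lies between -1.16 and -0.81 on all arrays, HSP70 splits by the dye of the mutant, the mitochondrial genes lie on opposite sides of 0, and ERD2 was not well above background in any channel.

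Hsp70b (AT1G16030, chromosome 1), a cytosolic HSP70 induced by heat, had the largest difference among the 10 genes. Its normalized signal on replicates 1 to 4 was 14.61, 14.90, 14.32 and 14.31 log2 units in the mutant and 15.75, 15.71, 15.48 and 15.33 log2 units in wild type. All 4 mutant values lay below all 4 wild-type values, with means of 14.5 ± 0.28 in the mutant and 15.6 ± 0.20 in wild type (SD, n = 4). The array ratios were -1.14, -0.81, -1.16 and -1.02 on the log2 scale. Hsp70b thus fell 2.05-fold in the mutant (fitted log2 ratio -1.03 ± 0.04, SE, adjusted p = 2.8e-05). Of the 19314 genes 8 had a lower ratio, and 11 were at least 2-fold lower. The mean log2 ratio was -1.15 on the arrays with the mutant in Cy3 and -0.92 on those with it in Cy5, so both orientations put the mutant below wild type, and the dye effect of this probe did not pass (0.12 log2 units, adjusted p = 0.088).

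HSP70 (AT3G12580, chromosome 3), the other measured heat-induced cytosolic gene, gave ratios that depended on the dye. Its normalized signal on replicates 1 to 4 was 16.93, 17.59, 16.90 and 17.57 log2 units in the mutant and 17.93, 17.36, 17.88 and 17.58 log2 units in wild type. The mutant was clearly below wild type on replicates 1 and 3, level with it on replicate 4 and above it on replicate 2, so the groups overlapped. The array ratios were -0.997, 0.23, -0.98 and -0.01, which average -0.99 where Cy3 labelled the mutant and 0.11 where Cy5 did. With the dye effect estimated for each gene, HSP70 passed as 1.36-fold lower (log2 ratio -0.44 ± 0.04, SE, adjusted p = 0.00054 in limma). Without a dye term the ratio was the same and the call was lost (adjusted p = 0.26).

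The dye effect of the HSP70 probe was 0.55 log2 units (adjusted p = 0.0022), and 26 of the 19314 genes had a larger one. Dye effects passed for 18.1% of all genes and for 1 of the 8 HSP70 genes, which was HSP70 itself. It is among the brightest probes on the array, with 17 probes at least as bright, and all 8 of its channel values came from the scanner's low-gain scan, which replaces signals beyond the range of the normal scan. Over the 100 brightest tested genes the median dye effect was 0.33 log2 units, and 18 of them exceeded HSP70. In the scanner software's own processed signals the array ratios of HSP70 were -0.73, 0.06, -0.69 and -0.24, a narrower split in which 3 of 4 arrays put the mutant lower. Among other tested HSP70 genes, low-gain values numbered 8 for AT3G09440 and cpHsc70-1, 6 for Hsp70b, 5 for MTHSC70-2 and 2 for Hsp70-2. The dye effects of these genes ran from -0.12 to 0.12 log2 units and did not pass. The part that brightness or the low-gain scan plays in the HSP70 ratio was not tested.

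**Figure D2:**
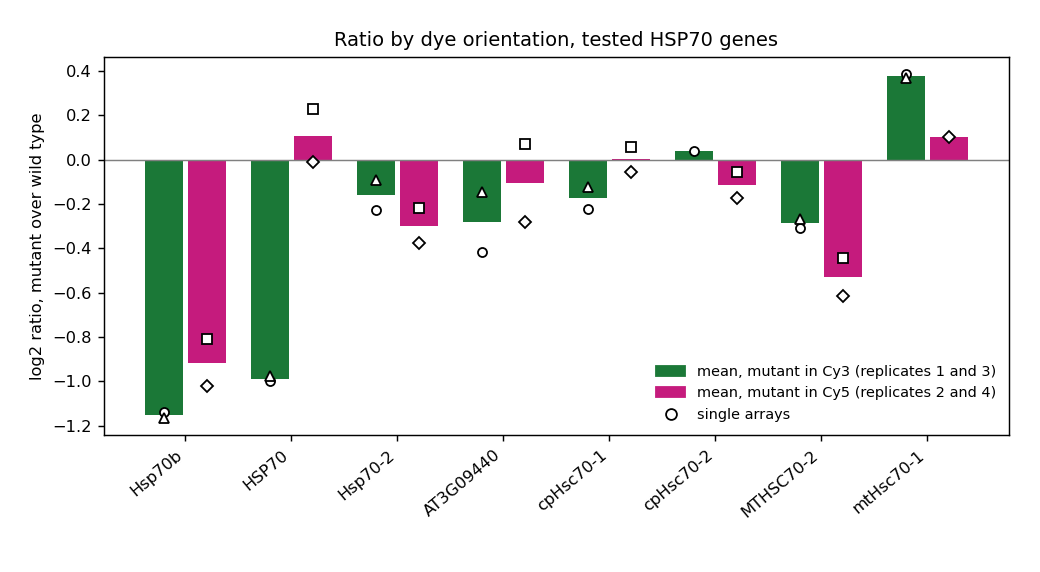
Mean log2 ratio of mutant over wild type (y axis) for the arrays with the mutant in Cy3 (green bars) and in Cy5 (magenta bars), with single arrays as open symbols, for the 8 tested HSP70 genes. HSP70 averages -0.99 in Cy3 and 0.11 in Cy5, Hsp70b -1.15 and -0.92, and MTHSC70-2 -0.29 and -0.53.

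ERD2 (AT1G56410, chromosome 1), the gene in the heat-induced cytosolic class that also responds to dehydration, was not well above background in any of the 8 channels. Its spots read 72 to 82 in green and 68 to 76 in red, against local backgrounds of 45 to 54 in green and 53 to 58.5 in red. No fold is given for it, and a difference between the genotypes was not detectable at this signal.

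Hsp70-2 (AT5G02490, chromosome 5), a constitutive cytosolic gene, was measured by 2 probes. The brighter one (A_84_P556555) read 13.67, 13.70, 13.85 and 13.80 log2 units in the mutant and 13.90, 13.92, 13.94 and 14.18 log2 units in wild type on replicates 1 to 4. The highest mutant value lay below the lowest wild-type value, but by a small margin. Hsp70-2 fell 1.17-fold in the mutant (log2 ratio -0.23 ± 0.04, SE, adjusted p = 0.0065), with array ratios of -0.23, -0.22, -0.09 and -0.38. The dimmer probe (A_84_P305140), tested as a row of its own, gave -0.24 ± 0.05 (adjusted p = 0.011) and array ratios of -0.12, -0.22, -0.12 and -0.51. Both probes were lower in the mutant on all 4 arrays. The call was lost with the uncentred series values (-0.13, adjusted p = 0.12) and when the channels were fitted separately, without the pairing on the array (adjusted p = 0.14).

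AT3G09440 (chromosome 3), also constitutive and cytosolic, had a similar ratio that did not pass (-0.19 ± 0.07, SE, adjusted p = 0.062). Its signal was 15.33, 15.57, 15.34 and 15.30 log2 units in the mutant and 15.75, 15.50, 15.49 and 15.59 log2 units in wild type. The mutant was lower on replicates 1, 3 and 4 and slightly higher on replicate 2. It passed in 2 of 16 alternatives, without replicate 2 (-0.28, adjusted p = 0.00076) and with median centring in place of loess (-0.33, adjusted p = 0.0010). Both p values, from limma, rest largely on a variance pooled over genes. With median centring the SE was 0.082 for all HSP70 genes with 4 ratios.

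HSC70-1 (AT5G02500), the constitutive gene that is the direct neighbour of Hsp70-2 on chromosome 5, could not be tested because the scanner software had marked its spot as an outlier on replicates 1 and 2. On the unmarked arrays the log2 ratio was 0.02 on replicate 3 and -0.13 on replicate 4. With marked spots kept, its signal was 16.26, 16.31, 16.15 and 16.06 log2 units in the mutant and 16.23, 16.08, 16.14 and 16.20 log2 units in wild type. The groups overlapped, and the fitted log2 ratio was 0.03 ± 0.06 (SE, adjusted p = 0.69). Cytosolic HSP70 genes are close in sequence, and how far each probe also binds transcripts of the others was not tested.

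**Figure D3:**
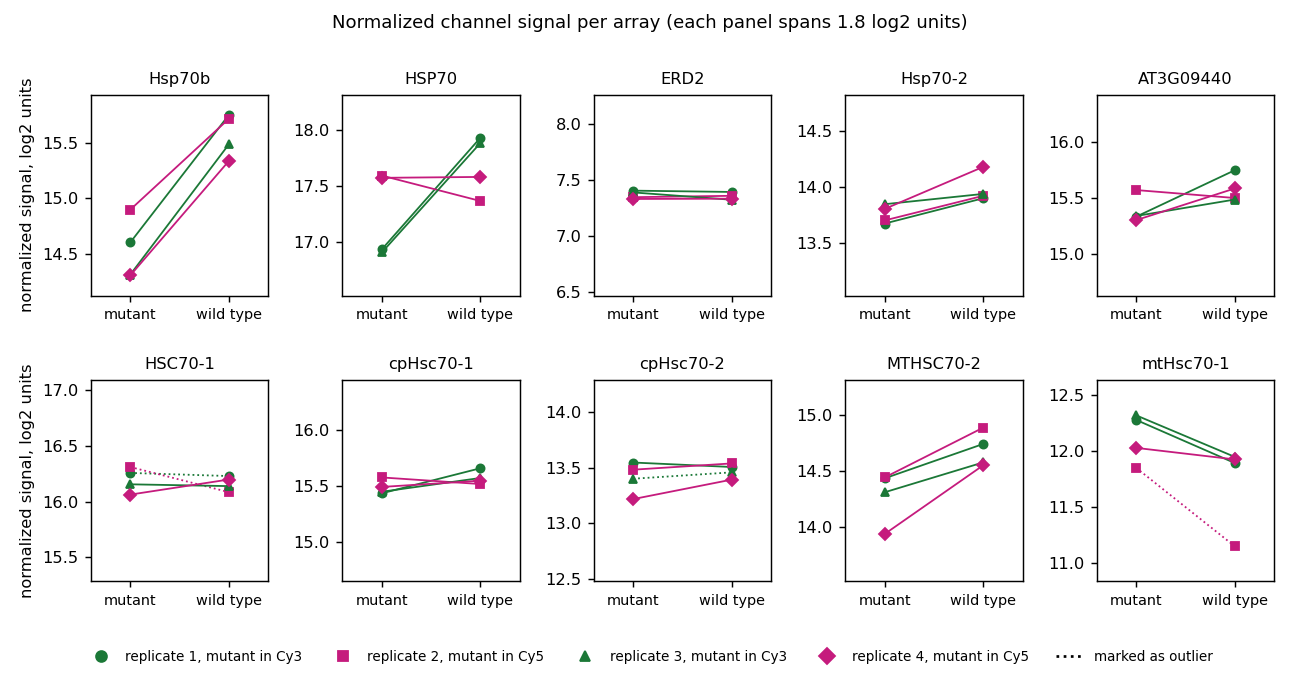
Normalized signal in log2 units (y axis) of mutant and wild type (x axis) for the 10 HSP70 genes, with a line joining the channels of each array and dotted lines for spots marked as outliers. The lines of Hsp70b, Hsp70-2 and MTHSC70-2 run upward to wild type on all 4 arrays, while those of HSP70 do so clearly on replicates 1 and 3 only. Heights of different panels come from different probes and are not comparable.

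Both plastid genes encode HSP70s of the stroma, and neither differed beyond the spread between arrays. cpHsc70-1 (AT4G24280, chromosome 4) read 15.44, 15.58, 15.45 and 15.49 log2 units in the mutant and 15.66, 15.52, 15.57 and 15.55 log2 units in wild type. The groups overlapped, and the log2 ratio was -0.09 ± 0.04 (SE, adjusted p = 0.12). cpHsc70-2 (AT5G49910, chromosome 5) read 13.54, 13.48 and 13.22 log2 units in the mutant and 13.50, 13.54 and 13.39 log2 units in wild type on replicates 1, 2 and 4, its spot on replicate 3 having been marked and left out. Its log2 ratio was -0.04 ± 0.05 (SE, n = 3, adjusted p = 0.58). Both ratios turned slightly positive in the deposited series values without centring (0.017 for cpHsc70-1 and 0.042 for cpHsc70-2). With median centring in place of loess cpHsc70-1 passed as lower in limma (-0.22, adjusted p = 0.048). Its SE of 0.082 there was that of all HSP70 genes with 4 ratios and does not reflect its own spread.

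The mitochondrial genes, which encode HSP70s of the matrix, moved apart. MTHSC70-2 (AT5G09590, chromosome 5) read 14.44, 14.44, 14.31 and 13.94 log2 units in the mutant and 14.74, 14.89, 14.58 and 14.55 log2 units in wild type. All mutant values lay below all wild-type values. The array ratios were -0.31, -0.44, -0.27 and -0.61, and MTHSC70-2 fell 1.33-fold (log2 ratio -0.41 ± 0.04, SE, adjusted p = 0.00044). The call was lost in a fit of separate channels, which drops the pairing on the array (adjusted p = 0.12).

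mtHsc70-1 (AT4G37910, chromosome 4) read 12.28, 12.32 and 12.03 log2 units in the mutant and 11.89, 11.95 and 11.93 log2 units in wild type on replicates 1, 3 and 4. On those 3 arrays each mutant value was above each wild-type value. The array ratios were 0.39, 0.37 and 0.10, and mtHsc70-1 rose 1.18-fold in the mutant (log2 ratio 0.24 ± 0.04, SE, n = 3, adjusted p = 0.0075). On replicate 2 its spot was marked as an outlier and left out, with a local background of 936 in green and 826.5 in red, against 46 to 47.5 in green and 48 to 60 in red on the other arrays. That spot read 11.85 log2 units in the mutant and 11.15 log2 units in wild type, a log2 ratio of 0.70. With it kept, the mutant and wild-type values overlapped over the 4 arrays. The call was lost with the software's processed signals (0.21, adjusted p = 0.052), with the centred series values (0.24, adjusted p = 0.083), with median centring (0.13, adjusted p = 0.48), without a dye term (0.29, adjusted p = 0.070) and in the fit of separate channels (0.24, adjusted p = 0.17), and the ratio was positive in each of these.

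Within arrays, the log2 ratio of mtHsc70-1 exceeded that of MTHSC70-2 by 0.69, 0.64 and 0.72 on replicates 1, 3 and 4 (mean 0.68 ± 0.04, SD, n = 3). With the marked spot kept, the difference on replicate 2 was 1.14. The difference between these 2 genes was positive on all of these arrays, with replicate 4 alone standing for the orientation with the mutant in Cy5 unless the marked spot is kept. With 3 arrays a sign-flip test cannot give a p below 0.25, and with 4 arrays none below 0.13, so such differences are described without a test.

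Over the tested genes, 3 had mutant and wild-type channels that did not overlap over 4 arrays, with the mutant below (Hsp70b, Hsp70-2 and MTHSC70-2). Among all genes 4.76% were separated with the mutant below and 5.93% with the mutant above. Marked spots were included in these counts.

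The heat-induced and constitutive cytosolic classes were compared per array, as the mean log2 ratio of Hsp70b and HSP70 minus that of Hsp70-2 and AT3G09440. This difference was -0.75, -0.22, -0.95 and -0.19 on replicates 1 to 4 (mean -0.53 ± 0.38, SD, n = 4). It was negative on all 4 arrays and averaged -0.85 with the mutant in Cy3 and -0.20 with it in Cy5. The 2 heat-induced genes contributed differently to it. Hsp70b alone minus Hsp70-2 gave -0.91, -0.59, -1.07 and -0.65, and Hsp70b minus AT3G09440 gave -0.72, -0.88, -1.02 and -0.74. HSP70 minus Hsp70-2 gave -0.77, 0.45, -0.89 and 0.37, changing sign with the dye. The difference from the constitutive genes was thus negative on all 4 arrays for Hsp70b and in 1 of the 2 dye orientations for HSP70.

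In their means, the organelle classes differed less from the constitutive cytosolic genes than the heat-induced class did. Heat-induced cytosolic genes minus plastid genes gave -0.98, -0.29, -0.95 and -0.40 on replicates 1 to 4 (mean -0.65 ± 0.36, SD, n = 4). Plastid genes minus constitutive cytosolic genes gave 0.23, 0.08, -0.0040 and 0.21 on replicates 1 to 4 (mean 0.13 ± 0.11, SD, n = 4), with cpHsc70-1 alone standing for the plastid on replicate 3. Mitochondrial genes minus constitutive cytosolic genes gave 0.36, -0.37, 0.17 and 0.07 (mean 0.06 ± 0.31, SD, n = 4), with MTHSC70-2 alone standing for the mitochondrion on replicate 2. The spread exceeded the mean, and the class joins genes that passed in opposite directions. With the marked spot of mtHsc70-1 kept, replicate 2 gave 0.20. Between the organelles, the mitochondrial genes differed from cpHsc70-1 in opposite directions. MTHSC70-2 minus cpHsc70-1 gave -0.08, -0.50, -0.14 and -0.56 on replicates 1 to 4, and mtHsc70-1 minus cpHsc70-1 gave 0.61, 0.49 and 0.16 on replicates 1, 3 and 4.

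The genes whose 4 array ratios were nearest to those of Hsp70b, by Euclidean distance among 18638 genes with 4 ratios, were AT5G10695 (distance 0.29), AT1G72660 (0.39) and HSP21 (0.51), the last a small heat shock protein of the plastid. AT5G10695 had log2 ratios of -1.10, -1.04, -1.33 and -1.02 and HSP21 had -0.72, -0.74, -1.01 and -0.79. Nearest to HSP70 were MBF1C (0.30), a heat-induced transcriptional coactivator, AT1G59860 (0.33) and AT5G25840 (0.39). MBF1C had log2 ratios of -0.96, 0.03, -1.21 and -0.03, AT1G59860 had -0.81, 0.12, -0.98 and 0.24, and AT5G25840 had -0.74, 0.06, -0.86 and 0.20. All 3 were low on replicates 1 and 3 and near or above 0 on replicates 2 and 4, like HSP70. This likeness follows from their choice by nearness on these same ratios and is no separate result.

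Genes that work with HSP70 were read from the same fit in 7 lists of 57 genes, of which 53 were tested. Of these 20 were lower in the mutant, 8 were higher and 25 did not pass, beside 13.1% lower, 16.6% higher and 29.8% passing in either direction among all genes. Each list count below is to be read against these shares.

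Among 8 other members of the HSP70 superfamily, all tested, 3 were higher, 1 was lower and 4 did not pass (median log2 ratio 0.06). BIP2 and BIP1, HSP70s of the endoplasmic reticulum, were 1.32-fold and 1.22-fold higher (0.40 ± 0.04 and 0.28 ± 0.03), and AT4G16660 was 1.31-fold higher (0.39 ± 0.04). HSP70T-2, a truncated cytosolic HSP70, was 1.83-fold lower (-0.87 ± 0.05, n = 3), with ratios of -0.70, -0.97 and -1.10. The HSP110-type genes HSP91 (0.04 ± 0.04) and Hsp70-15 (-0.06 ± 0.04) did not pass.

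Among 12 J-domain genes 6 were lower and 6 did not pass (median -0.12). The count of lower genes was 3 with processed signals, 3 with series values and 1 without a dye term. It was 3 of 11 tested genes without replicate 1 and 2 of 10 without replicate 3. In the limma fit of separate channels it was 0, where 4 had an unadjusted p under 0.05. The largest differences were in AT2G20560 (-0.48 ± 0.06, n = 3), AT4G28480 (-0.32 ± 0.04) and J2 (-0.31 ± 0.04), a cytosolic J protein. The ratios of J2 averaged -0.07 with the mutant in Cy3 and -0.55 with it in Cy5, and those of AT4G28480 -0.11 and -0.54, both with a dye effect past the threshold.

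Of 14 nucleotide exchange factors 13 were tested, with 3 higher, 6 lower and 4 not passing (median -0.07). Over the alternatives 2 to 9 passed, with 4 of 10 tested genes passing without replicate 1 and 5 of 10 without replicate 3. BAG6, a calmodulin-binding BAG protein, was 2.28-fold lower (-1.19 ± 0.04, n = 3) and Fes1A, the exchange factor of cytosolic HSP70, was 1.56-fold lower (-0.64 ± 0.04). BAG1 was 1.29-fold higher (0.37 ± 0.05, n = 3), and BAG2 (0.16 ± 0.04) and BAG3 (0.15 ± 0.04, n = 3) were slightly higher. The ratios of BAG3 were 0.06, 0.27 and -0.01 on replicates 2, 3 and 4. The count of higher exchange factors was 1 with processed signals and 1 without a dye term. The mitochondrial GrpE genes, partners of the matrix HSP70s, also stood apart from each other. AR192, one of them, was 1.20-fold lower (-0.27 ± 0.03), with ratios from -0.31 to -0.23 on the 4 arrays, while MGE1 had 0.09 ± 0.03 and did not pass (adjusted p = 0.092).

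Among 5 genes that link HSP70 to HSP90 or to ubiquitination, Hop3 (-0.63 ± 0.05, n = 3), an HSP70-HSP90 adaptor, and HIP1 (-0.27 ± 0.05), an HSP70-interacting protein, were lower and 3 did not pass (median -0.09). The count of lower genes was 1 of 4 tested without replicate 2 or 4. Without replicate 3 it was 0 of 4 in limma, with 1 at an unadjusted p under 0.05. Hop1 (0.06 ± 0.03) and Hop2 (0.0029 ± 0.04) were among those that did not pass in the reported fit. The ratios of HIP1 averaged -0.44 with the mutant in Cy3 and -0.10 with it in Cy5, with a dye effect past the threshold. Disaggregases work with HSP70 to dissolve aggregates. CLPB3 of the plastid (-0.95 ± 0.04, n = 3) and CLPB4 of the mitochondrion (-0.44 ± 0.03) were both lower. CLPB3 could not be fitted without replicate 1, 3 or 4, and HSP101 of the cytosol was not tested, with -0.79 ± 0.04 when marked spots were kept.

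Of 7 organelle chaperonin genes 5 were tested, with 1 higher, 2 lower and 2 not passing (median -0.06), and 1 to 5 passed over the alternatives. HSP60-2, a mitochondrial chaperonin, was 1.22-fold higher (0.28 ± 0.03), while HSP60 had 0.01 ± 0.03 and did not pass. Cpn60beta2 (-0.28 ± 0.03) and CPN20 (-0.20 ± 0.03), both of the plastid, were lower. Of 8 class A heat shock factors AT-HSFA7B was 1.47-fold higher (0.56 ± 0.03), HSFA2 was 1.12-fold lower (-0.16 ± 0.05) and 6 did not pass (median 0.05). AT-HSFA7B averaged 0.78 with the mutant in Cy3 and 0.34 with it in Cy5, with a dye effect past the threshold. The HSFA2 call was lost in 8 of 16 alternatives, among them those without replicate 3, without replicate 4 and without a dye term. HSFA2 is itself induced by heat and activates chaperone genes, and its ratios averaged -0.43 with the mutant in Cy3 and 0.11 with it in Cy5, a split like that of HSP70.

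**Figure D4:**
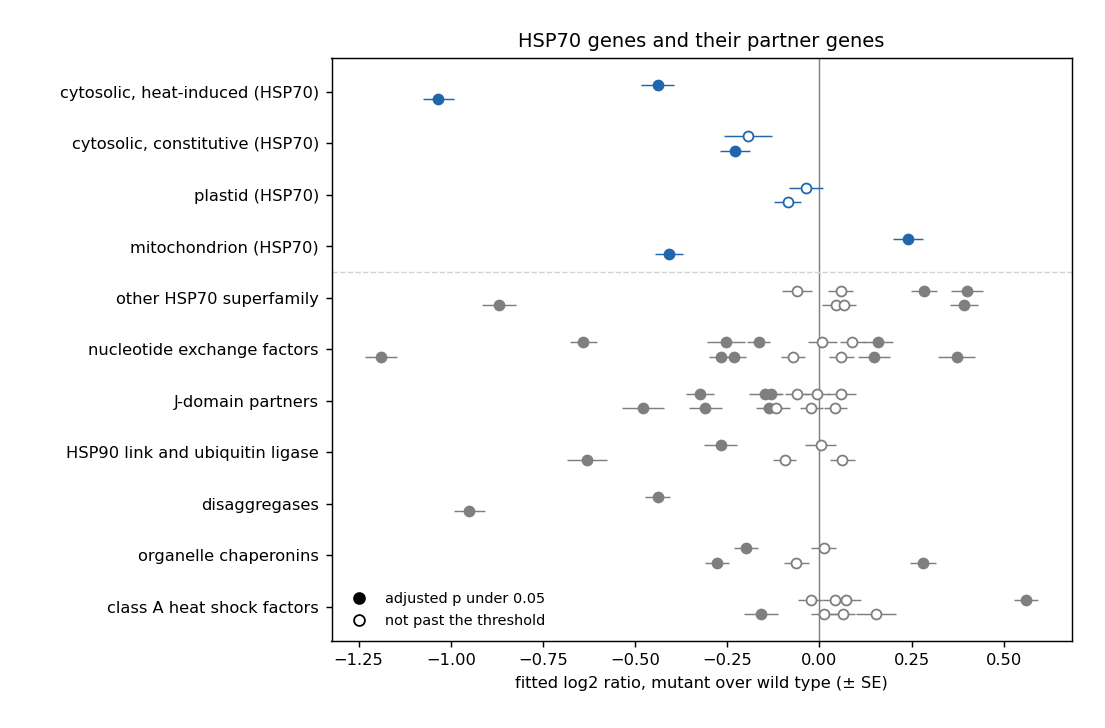
Fitted log2 ratio of mutant over wild type with its standard error (x axis) for the tested HSP70 genes (blue, by class) and for the tested genes of 7 partner lists (grey), with filled points past an adjusted p of 0.05. BAG6 (-1.19), Hsp70b (-1.03), CLPB3 (-0.95) and HSP70T-2 (-0.87) lie lowest, and AT-HSFA7B (0.56) lies highest.

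**Figure D5:**
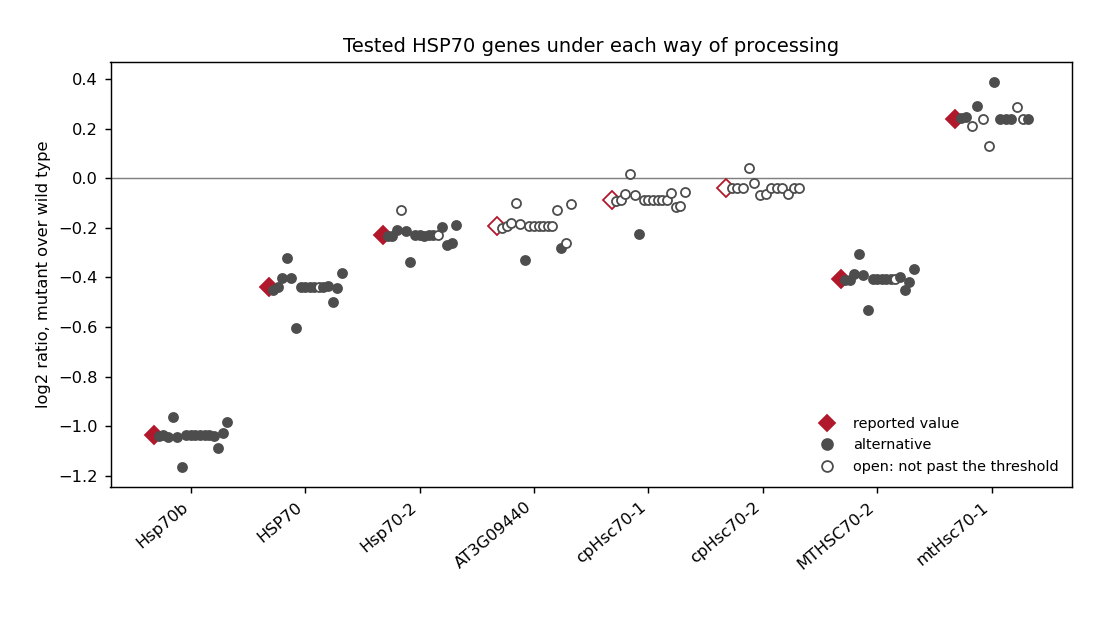
Log2 ratio of mutant over wild type (y axis) of the 8 tested HSP70 genes under the reported processing (red diamonds) and each alternative (grey points), with open symbols where the value did not pass. Hsp70b stays between -1.17 and -0.96 and passes in 16 of 16 alternatives, MTHSC70-2 and HSP70 in 15 of 16 each, Hsp70-2 in 14 of 16 and mtHsc70-1 in 8 of 13. Some alternatives leave the array ratios of a gene unchanged.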

How the data were processed

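Each array held mutant and wild-type total RNA of 1 replicate in 2 dyes, per the labels. The submitters' processing notes name Agilent Feature Extraction 9.1.3.1 as the software that read the spots. The deposited spot and background values are unnormalized median intensity values, per the file headers, and the processed signals are intensity values that the software had background-subtracted and dye-normalized. In the deposited log10 ratio, red processed signal is divided by green. The deposited series values are natural log ratios with the mutant on top, since each array's slope on the log10 ratio was 2.3026 in size, with the sign following the dye of the mutant. A constant of 0.0563 natural log units had been added on all 4 arrays. Column medians of replicates 1 to 4 were 0.0458, 0.0813, 0.107 and -0.0011.

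Median signals replaced the planned mean signals, which are not in the files used here. Background was corrected with normexp (offset 50), which draws dim ratios towards 0, and ratios were normalized within arrays by loess. Outlier-marked spots were left out (190 to 399 of 37685 per array). The brightest probe stood for a gene if it was well above background in all 4 channels of a genotype and had at least 3 ratios. limma 3.58.1 (R 4.3.3) fitted genotype and a gene-wise dye effect per gene, with the array pairing the genotypes, and adjusted p over 19314 genes (two-sided). The fit was run on data simulated from its own model, which cannot test the normalization or the dye effects of bright probes. All arrays came from 1 slide and shared 1 scan entry in their headers, so a batch test was not possible. The number of arrays limits the precision.

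The HSP70 genes, classes and partner lists, compiled from general knowledge of the families, were chosen with earlier results of these data known. Named were all HSP70 genes, both mutated genes, up to 3 called genes per list and direction with the largest ratios, and the 3 genes nearest to HSP70 and to Hsp70b. HSP101, MGE1, HSP60, HSP91, Hsp70-15, Hop1 and Hop2 were named after their values were seen. Probe and promoter sequences were not used here.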

Additional observations from a re-analysis of the deposited data

Results flagged for a closer look

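Over 61 genes of the lists with 4 ratios, 2 had an array far from the others by Dixon's test, where chance gives about 1 in 20, and neither is one of the 10 HSP70 genes. AT2G22360, in the J-domain list, had a log2 ratio of -0.154 on replicate 1, while the others lay between -0.125 and -0.123. CLPB4, the mitochondrial disaggregase, had -0.51 on replicate 4, while the others lay between -0.42 and -0.41.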

How the results depend on the processing

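Of 122 values of the 8 tested HSP70 genes under alternative settings, 108 kept their direction and side of the threshold, 9 lost the threshold, 3 newly passed and 2 changed sign (cpHsc70-1 at 0.017 and cpHsc70-2 at 0.042, both with uncentred series values, to which a constant had been added). Hsp70b passed in every alternative tried. These counts include alternatives that leave the array ratios of a gene as they were, so they overstate how far each call was tried. The ratios of Hsp70b and HSP70 stayed at -1.03 and -0.44 with marked spots kept, dim probes kept, probes averaged or every probe tested. That of mtHsc70-1 stayed at 0.24 without replicate 2, where it had no unmarked ratio. In a fit of separate channels, with no replicate block for the pairing on the array, 2 HSP70 genes passed (Hsp70b and HSP70, both lower), with 10 partner genes and 544 of all genes. Without a dye term 3 HSP70 genes passed (Hsp70b, Hsp70-2 and MTHSC70-2), with 17 partner genes in place of 28 and 1826 of all genes in place of 5747. All genes past the threshold numbered 3618 with centred series values and 2547 with median centring. With median centring the p values do not reflect the spread of single genes, since the SE was 0.082 for all HSP70 genes with 4 ratios. Without replicate 2 or 4 the adjusted p of HSP70 in limma was 4.8e-07 or 1.1e-05, smaller than with all 4 arrays (0.00054). Calls in those 2 fits also rest largely on a variance pooled over genes. The higher share of calls was 55.8% as reported, 79.6% with uncentred series values, 45.5% with median centring and 68.0% without a dye term. Leaving out 1 array left 2195 (without replicate 3) to 5814 (without replicate 2) genes past the threshold. Genes left with too few ratios were not tested, so counts also fall for that reason. Without replicates 1, 2, 3 and 4 in turn, 18 of 47, 21 of 46, 17 of 46 and 21 of 46 tested partner genes passed. In the same order, 4 of 6, 6 of 7, 4 of 7 and 4 of 6 tested HSP70 genes passed. Class differences here are between mean fitted ratios, not means over arrays. With all arrays they were -0.53 (heat-induced minus constitutive), 0.15 (plastid) and 0.13 (mitochondrial). Under the same omission the heat-induced minus constitutive difference ranged from -0.58 to -0.47 and the plastid one from 0.09 to 0.19. For the latter cpHsc70-2 could be fitted only without replicate 3. The mitochondrial one ranged from -0.24 to 0.17. The mitochondrial one was negative without replicate 1 (-0.24), 3 (-0.16) or 4 (-0.22), where mtHsc70-1 has too few ratios and MTHSC70-2 stands alone. With dim probes kept, so that ERD2 joined the heat-induced class, the heat-induced minus constitutive difference was -0.27. With marked spots kept, so that HSC70-1 joined the constitutive class, it was -0.61 and the plastid one was 0.056. In the reported fit these were -0.53 and 0.15. Of 112 counts of called genes per list, 28 moved by over 1.5 times. A block for slide or scan and the search for promoter motifs were not run.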
